A study of Mus musculus with 24 samples.

Results

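The transcripts described here are 138 stable mRNAs whose reads were enriched by the anti-m6A antibody at all 3 stages of the mouse maternal-to-zygotic transition that were sampled. They were chosen by their measured values: protein-coding nuclear genes with an input level of at least 5 CPM (the count scaled to a common library total) at each stage, less than a 4-fold difference between the highest and lowest stage mean in input, and an IP/input ratio of mean CPM of at least 2 at each stage. Of 55471 genes counted, 21961 were protein-coding and nuclear, 4134 of these passed the limits on input and are called stable mRNAs below, and the 138 members were 3.34% of them. Another 153 stable mRNAs had a ratio of at most 0.5 at each stage and served for comparison. Since all input and IP libraries entered the choice, their values are given as a description with no test.

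The samples were B6D2F1 mouse oocytes at metaphase II (MII), late 1-cell embryos (L1C) and late 2-cell embryos (L2C), with 3 input and 3 IP libraries at each stage. SLIM-seq, a low-input m6A immunoprecipitation method, was applied with 0.5 µg of antibody to 100 ng of total RNA, and the inputs were sequenced without immunoprecipitation. The study states that inputs and IPs came from shared batches of RNA. The ratios below divide by the mean input of a stage and do not pair an IP with an input. In a separate experiment zygotes were injected with Cas13d mRNA, either together with 3 crRNAs that target Ythdc1 (KD, 3 libraries) or alone (NC, 3 libraries), and were collected as L2C embryos, so the enzyme is present in both groups and a control crRNA in neither. These are bulk libraries of pooled oocytes or embryos, in which fewer cells and less RNA per cell cannot be told apart, and the labels do not say whether replicates were separate collections, so the p-values below measure the spread between these libraries, which may be technical.

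N6-methyladenosine (m6A) is placed on the adenosine of a short consensus, most often GGAC or GGACT, by the Mettl3-Mettl14 complex and is read by YTH-domain proteins. Ythdf2 and its relatives act in the cytoplasm, while Ythdc1 binds methylated RNA in the nucleus and acts in splicing, export and chromatin. Oocytes and early embryos live on stored maternal mRNA, which is cleared as the embryonic genome starts to be read. Stable means here that the share of input reads changed by less than 4-fold through this handover. A share is not an amount per embryo, and it does not tell kept maternal mRNA from new transcripts.

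The SLIM-seq libraries held 11107421 to 39739950 estimated counts. The median ratio of the members was 2.70, 2.43 and 2.92 in the 3 MII IPs, 2.62, 2.48 and 2.70 in the L1C IPs and 2.32, 2.81 and 2.503 in the L2C IPs, of which the second was the smallest library. Leaving out 1 library gave 121 to 153 genes within the same limits, with 121 without the second L2C IP, 123 without the first MII input and 123 without the third MII IP. Oocyte markers (Zp3, Gdf9, Bmp15, Nlrp5, Mos and Oosp1) summed to 7229 to 8277 CPM in MII inputs and to 770 to 777 CPM in L2C inputs, and 6 of 6 were above 1 CPM in each. Markers of the 2-cell embryo, among them Zscan4d and Zfp352, summed to 1.47 to 1.90 CPM in MII inputs and to 404 to 539 CPM in L2C inputs. Of 8 markers of cumulus and granulosa cells, which surround the oocyte, the inputs of MII, L1C and L2C had 4, 5 and 2 above 1 CPM, with sums of 24.6 to 26.6, 8.32 to 12.8 and 264 to 280 CPM. At MII Cyp11a1 had a mean of 13.3 CPM, Inha 6.21, Inhba 2.71 and Tnfaip6 2.23 CPM, while Ptx3 was at 0 in the inputs of all 3 stages. The L2C sum came mostly from Amhr2 with a mean of 270.1 CPM.

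The median ratios of the members lay close together across stages, where the rule had set a floor of 2 at each. Their median ratio was 2.62, 2.65 and 2.54 in MII, L1C and L2C, with SDs of 0.24, 0.11 and 0.25 over the 3 IP libraries of a stage, while the median over all stable mRNAs was 1.03, 1.11 and 1.11. In 138, 137 and 138 members the lowest IP library lay above the highest input library at MII, L1C and L2C. This held for 38.7%, 38.8% and 41.4% of all stable mRNAs, and since the rule used the same values nothing is read from the difference. In 101 members the lowest of the 3 ratios was under 2.5, and in 10 it was over 3. The ratio differed by less than 1.5-fold among stages in 106 members and by more than 2-fold in 7. The floor at each stage limits these differences, and the counts were not taken over all stable mRNAs.

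**Figure D1:**
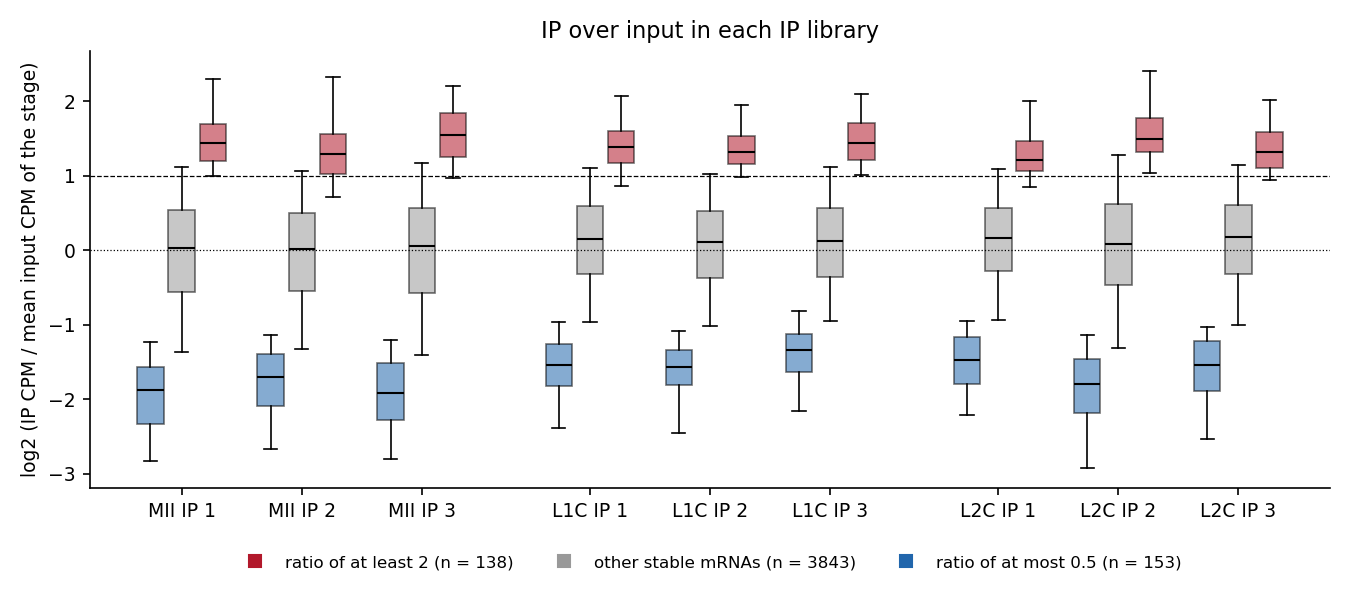
The log2 ratio of CPM in each IP library (horizontal axis) to the mean input CPM of its stage, for members (red), all other stable mRNAs (grey) and stable mRNAs with a ratio of at most 0.5 (blue). Boxes are quartiles with the median, whiskers run from the 5th to the 95th percentile, and the dashed line marks the 2-fold limit: the members sit about that line or above it in all 9 IP libraries because the rule placed them there.

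How many genes met the limits depended on the scaling of the libraries. With trimmed mean (TMM) scaling in place of column sums 51 genes met them, 44 of which were among the 138, and the median ratio of all stable mRNAs shifted by -0.23, -0.30 and -0.29 on the log2 scale at MII, L1C and L2C. TMM multiplies a whole library by 1 factor, so members and other genes moved together and the gap between their median log2 ratios, 1.34 at MII with either scaling, could not show a change. An absolute 2-fold enrichment thus depended on the scaling. It also depended on single libraries: 57 of the 138 had a ratio under 2 at a stage when 1 library of that stage was left out, a check added after the data were seen. In 4 members a ratio moved by over 1.5 times. Without the second L2C IP the L2C ratio of Btf3, a subunit of the nascent polypeptide-associated complex, went from 4.44 to 2.35, and without the third L1C IP that of the zinc finger gene Zc3h7a at L1C went from 2.24 to 1.21. The others were Cdk8 and Paip1, described below. Just inside the limit were Tent4a, a poly(A) polymerase, with a lowest ratio of 2.02, Ndufa4 with 2.01 and Dppa3 with 2.00. Just outside were Upf3b with 1.995, Mrpl35 with 1.994 and Med31 with 1.993.

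The 10 members with the highest lowest-stage ratio were Atp2a2, Cnot6l, Zfp770, Tab2, 1110059G10Rik, Suz12, Slc9b1, Paip1, Usp1 and Magoh. Atp2a2 (GRCm38, chr5:122453513-122502225), the calcium pump of the endoplasmic reticulum, came first with ratios of 4.34 (MII), 5.03 (L1C) and 3.81 (L2C). Atp2a2 had 19.7, 16.9 and 19.4 CPM in the 3 MII inputs and 83.3, 75.3 and 84.1 CPM in the 3 MII IPs. In L1C embryos it had 20.4, 17.4 and 19.7 CPM in the inputs and 99.8, 94.2 and 95.03 CPM in the IPs. In L2C embryos the values were 28.6, 27.6 and 23.5 CPM and 94.8, 106 and 102 CPM. All IP values were above all inputs at each stage.

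Cnot6l (chr5:96070333-96164171), a deadenylase of the CCR4-NOT complex that shortens poly(A) tails, had ratios of 3.64 (MII), 5.30 (L1C) and 5.83 (L2C). Cnot6l had 38.8, 41.2 and 38.3 CPM in the 3 MII inputs and 139, 117 and 175 CPM in the 3 MII IPs. In L1C embryos it had 31.2, 29.9 and 23.8 CPM in the inputs and 147, 162 and 142 CPM in the IPs. In L2C embryos the values were 12.9, 7.07 and 11.3 CPM and 57.8, 59.7 and 64.8 CPM. Input and IP were both lowest in L2C embryos, and the input fell more than the IP did. Tab2 (chr10:7905653-7956230), an adaptor of the TAK1 kinase, had ratios of 4.16 (MII), 3.40 (L1C) and 3.47 (L2C), and its mean input of 5.47 ± 0.67 CPM (SD, n = 3) at MII and 19.3 ± 2.8 CPM at L2C differed while the ratios stayed close together.

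Suz12 (chr11:79993106-80034123) is a core subunit of the Polycomb repressive complex 2, which methylates histone H3. Suz12 had 18.6, 24.5 and 26.6 CPM in the 3 MII inputs and 82.3, 56.1 and 92.2 CPM in the 3 MII IPs. In L1C embryos it had 21.6, 20.3 and 13.0 CPM in the inputs and 80.2, 83.7 and 76.1 CPM in the IPs. In L2C embryos the values were 76.7, 52.2 and 65.4 CPM and 214, 363 and 248 CPM. Its input was higher in every L2C library than in any MII or L1C library, and the second L2C IP was the highest. Zfp770 (chr2:114193461-114201469) is a zinc finger protein and had the fewest input reads of all members. Its input means were 5.77 ± 0.77, 5.77 ± 1.0 and 5.65 ± 0.99 CPM at the 3 stages and its IP means 22.1 ± 4.6, 23.4 ± 1.1 and 19.7 ± 1.6 CPM (SD, n = 3 each). Usp1, a deubiquitinase of the DNA damage response, had ratios of 3.11 (MII), 3.17 (L1C) and 3.75 (L2C), and Magoh, a core protein of the exon junction complex, 3.10 (MII), 3.73 (L1C) and 3.92 (L2C). Paip1, a partner of the poly(A)-binding protein in translation, had ratios of 3.25 (MII), 3.14 (L1C) and 3.23 (L2C) and inputs that spread widely at L2C, with 361, 159 and 126 CPM, so that without the first L2C input its L2C ratio was 4.87. Slc9b1, a sodium/hydrogen exchanger, had ratios of 4.801 (MII), 3.21 (L1C) and 3.63 (L2C), and 1110059G10Rik, an uncharacterised gene, 4.01 (MII), 3.32 (L1C) and 3.80 (L2C).

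**Figure D2:**
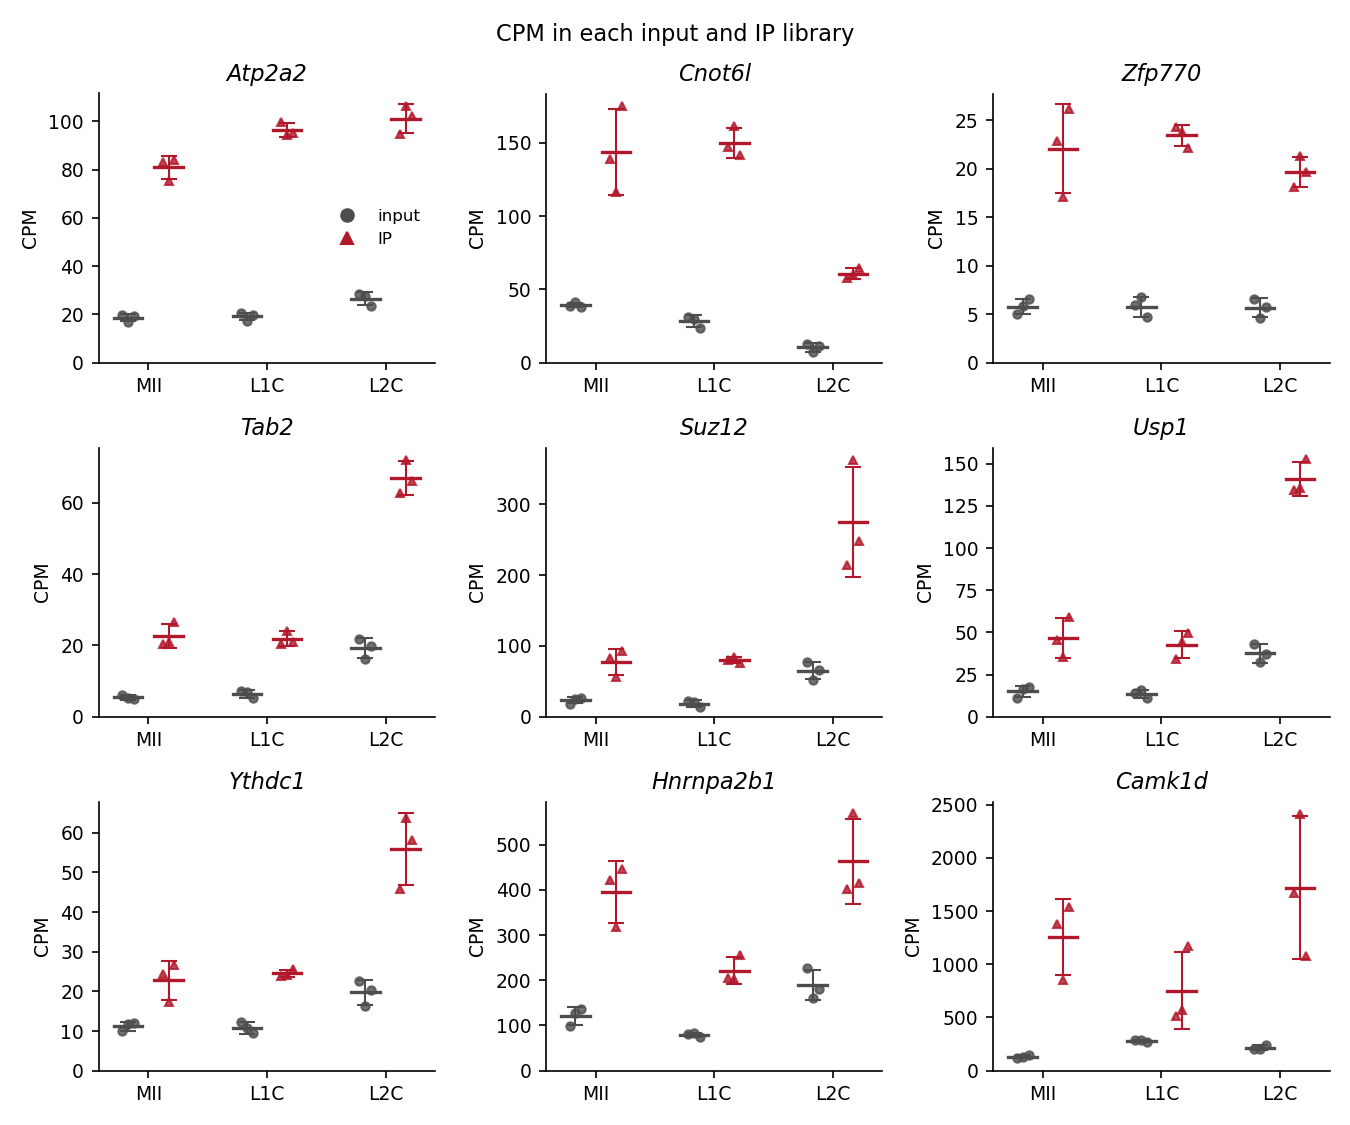
CPM of 9 members in each input (grey circles) and IP library (red triangles) at MII, L1C and L2C, with the mean and SD of 3 libraries; each vertical axis starts at 0. The IP points lie above the input points of the same stage in every panel, and Camk1d shows the widest spread among IP libraries.

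The GGACT pentamer is the commonest form of the m6A consensus, and a copy of it is shown for each of these 10 members that had one in its longest coding transcript. Searched on the sense strand only, 108 members (78.3%) had GGACT there, against 92.5% of all stable mRNAs with a coding transcript, and Cnot6l, Suz12 and Magoh had none. Each window below is the 25 bases around the copy nearest to the stop codon, read from GRCm38 at the positions given, and the capitals mark the pentamer. A match is a description and no site of methylation was called here.
Atp2a2, chr5:122460115-122460139, minus strand, coding sequence: atgggctcagGGACTgcagtggcta
Zfp770, chr2:114195277-114195301, minus strand, untranslated region after the stop codon: gccatccataGGACTctaaggttgt
Tab2, chr10:7907152-7907176, minus strand, untranslated region after the stop codon: ggtgttcccaGGACTcctcccctct
1110059G10Rik, chr9:122947866-122947890, minus strand, untranslated region after the stop codon: tgaatattgtGGACTtggtttcctg
Slc9b1, chr3:135392183-135392207, plus strand, coding sequence: tggatctggaGGACTggtcacacta
Paip1, chr13:119455723-119455747, plus strand, coding sequence: ttgaaagagaGGACTtttttccaga
Usp1, chr4:98934619-98934643, plus strand, coding sequence: taacatgaacGGACTtgagaacaaa

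The members covered many functions. By roles assigned from general knowledge after the values were seen, 33 act in chromatin and transcription, 31 in RNA binding, processing and translation, 23 in membranes, transport and cytoskeleton, 13 in chromosomes, replication and division, 11 in signalling, 10 in the ubiquitin and SUMO systems and the proteasome and 7 in mitochondria and metabolism, while 10 were not placed. The RNA group had a median ratio of 2.98 (MII), 2.92 (L1C) and 2.48 (L2C), and the group of membranes and transport 3.05, 2.35 and 2.34. The mitochondrial group had 2.45, 2.92 and 2.32, and the chromatin group 2.59, 2.62 and 2.56.

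In gene lists drawn up by symbol, the splicing factors contributed 4 of their 40 stable members, Hnrnpa2b1, Hnrnpu, Prpf8 and Snrpd1. Prpf8, the central protein of the spliceosome, had ratios of 4.02 (MII), 4.23 (L1C) and 2.21 (L2C), and Hnrnpu, a nuclear RNA-binding protein, 3.57 (MII), 3.27 (L1C) and 2.66 (L2C). Snrpd1, a core protein of the spliceosomal particles, had ratios of 2.10 (MII), 2.65 (L1C) and 2.80 (L2C). The writers, erasers and readers of m6A contributed 2 of 8, Ythdc1 and Hnrnpa2b1, both of them readers or proposed readers. Ythdc1 (chr5:86804221-86836659) had inputs of 11.2 ± 1.1, 10.8 ± 1.4 and 19.8 ± 3.2 CPM and IPs of 22.8 ± 4.8, 24.6 ± 0.93 and 55.9 ± 9.2 CPM (SD, n = 3 each), with ratios of 2.02 (MII), 2.27 (L1C) and 2.83 (L2C). Hnrnpa2b1 had higher counts and ratios of 3.26 (MII), 2.78 (L1C) and 2.44 (L2C).

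Factors that store maternal mRNA or regulate its tail and translation were also present. Ybx1 and Ybx2, Y-box proteins that package mRNA and of which Ybx2 is germ-cell specific, were 2 of 11 on the list of poly(A) binding and maternal translational control. Ybx1 had ratios of 3.29 (MII), 3.95 (L1C) and 2.99 (L2C) and Ybx2 2.98 (MII), 3.25 (L1C) and 2.42 (L2C). Cnot6l was 1 of 21 on the list of deadenylation and decay, and Eif1ax, with ratios of 3.00 (MII), 2.52 (L1C) and 2.13 (L2C), 1 of 19 initiation factors.

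Among chromatin and transcription genes, Suz12, Suv39h2 and Hdac2 were 3 of 51 stable genes of histone methylation and remodelling. Suv39h2, a methyltransferase of heterochromatin, had ratios of 2.53 (MII), 2.28 (L1C) and 3.44 (L2C), and Hdac2, a histone deacetylase, 2.32 (MII), 2.18 (L1C) and 2.02 (L2C). Med6, Med21 and Gtf2a2 were 3 of 47 on the list of RNA polymerase II, Mediator and elongation, with lowest ratios of 2.62, 2.76 and 2.16. Cdk8, the Mediator kinase, and Anapc10, a subunit of the anaphase-promoting complex, were 2 of 28 cyclins, kinases and their regulators. Cdk8 changed most among the members of these lists together with Cenpq, a centromere protein: Cdk8 had ratios of 9.39 (MII), 2.85 (L1C) and 5.67 (L2C), and Cenpq 8.81 (MII), 3.36 (L1C) and 2.69 (L2C). The L1C IPs of Cdk8 were 154, 142 and 371 CPM, and without the third its L1C ratio was 1.90, under the limit of 2. Cenpq and Cenpk were 2 of 63 genes of kinesins and spindle assembly, and Smc1b, the meiotic cohesin subunit, was 1 of 13 of cohesin and condensin, with ratios of 2.44 (MII), 2.48 (L1C) and 2.75 (L2C).

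The ubiquitin list gave 4 of 115 (Usp1, Usp34, Otud4 and Trim41), small GTPases and vesicle transport 3 of 109 (Rab9, Sec62 and Snx6), mitochondrial ribosomal proteins 2 of 31 (Mrpl13 and Mrpl32), proteasome subunits 1 of 17 (Psma2), oxidative phosphorylation 1 of 25 (Ndufa4), chaperones 1 of 31 (Dnajc21), solute carriers 1 of 54 (Slc9b1) and zinc finger proteins 1 of 113 (Zfp770). No member came from 48 stable genes of DNA replication and repair, 18 of nucleolar ribosome assembly, 14 of the nuclear pore, 12 of autophagy or 2 cytosolic ribosomal proteins. Set beside the 3.34% of all stable mRNAs, the counts are small and no test over a list was made. Mrpl32 and Psma2 are neighbours on chromosome 13, separated by 74 bases and divergent in strand, and Ndufa4 and Phf14 lie 311 bases apart on chromosome 6. Ppwd1 and Cenpk overlap by 233 bases, so counts in such pairs are not independent where reads fall in the shared stretch.

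CPM of a gene grows with its length, so the members with most input reads are named for their share of reads and not as the most abundant. Dppa3 (chr6:122626410-122630272), a maternal factor that protects the maternal genome from demethylation, had most. Dppa3 had 944, 984 and 1189 CPM in the 3 MII inputs and 2191, 1708 and 2335 CPM in the 3 MII IPs. In L1C embryos it had 590.4, 689 and 644 CPM in the inputs and 1815, 1289 and 1539 CPM in the IPs. In L2C embryos the values were 1326, 1232 and 1378 CPM and 1955, 3915 and 2084 CPM. At L2C the second IP was far above the other two IPs, and without it the L2C ratio was 1.54. Srpk1, a kinase of splicing factors, had ratios of 3.91 (MII), 2.28 (L1C) and 2.09 (L2C), Skp1a, a subunit of SCF ubiquitin ligases, 2.24 (MII), 2.21 (L1C) and 2.22 (L2C), and Sub1, a transcriptional coactivator, 2.204 (MII), 2.18 (L1C) and 2.21 (L2C). Top1, the DNA topoisomerase, had ratios of 2.15 (MII), 2.79 (L1C) and 2.32 (L2C), and Oosp1, a protein secreted by oocytes, 2.87 (MII), 4.38 (L1C) and 3.69 (L2C).

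Camk1d (chr2:5293457-5714515), a calmodulin-dependent kinase, had the largest ratio of any member at any stage and the largest difference in ratio among stages, which was 3.57-fold. Camk1d had 116, 129.7 and 149.8 CPM in the 3 MII inputs and 1374, 855 and 1536 CPM in the 3 MII IPs. In L1C embryos it had 289, 287 and 269 CPM in the inputs and 514, 569 and 1170 CPM in the IPs. In L2C embryos the values were 206, 199.5 and 242 CPM and 1668, 2415 and 1079 CPM. The IPs of a stage spread widely, and its ratios were 9.51 (MII), 2.67 (L1C) and 7.97 (L2C). Without the third L1C IP the L1C ratio was 1.92, under the limit of 2, and the difference among stages 4.95-fold, so its place among the members rested on that library.

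Reads of members that share sequence with other genes could be split between them, and the values of those that share most are uncertain. In 43 members at least 1 31-base word of the longest coding transcript also occurs in another coding gene, and in 5 of them more than 10% do. Of the distinct 31-base words of Sap18b, 98.8% also occur in coding transcripts of Sap18, and of those of Nutf2-ps1 96.2% occur in Nutf2. Hist2h2aa1 shared 89.6% with Hist2h2aa2 and Gm7879 76.2% with Ppih. For Elobl 15.3% were shared with Coil. With processed pseudogenes 22 members shared more than 10%, among them Ybx1 with 41.2%, Btf3 with 37.5%, Usp1 with 33.5%, Dppa3 with 31.8%, Cdk8 with 24.4% and Snrpd1 with 22.7%. The spans of 77 members (55.8%) overlap another annotated gene, as do those of 58.9% of the stable mRNAs.

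The rule limited the change in input to less than 4-fold, and the median input of the members was lowest at L1C. It was 22.97 CPM (MII), 19.8 (L1C) and 25.04 (L2C), against 42.6, 37.6 and 37.3 over all stable mRNAs. The input was higher at L2C than at L1C in 80 members (58.0%) and in 47.1% of stable mRNAs, and higher at L1C than at MII in 51 members (37.0%) and in 38.3%. In 60 members the highest and lowest stage differed by less than 2-fold, and the median over members was 2.13-fold.

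The exons of the members were poorer in G and C than those of other stable mRNAs and slightly shorter. The median GC content of the union of exons was 44.2% (quartiles 41.6% and 47.8%) in members, 47.8% (43.6% and 52.5%) in all stable mRNAs and 54.5% (52.2% and 56.8%) in the stable mRNAs with a ratio of at most 0.5. When the stable mRNAs were divided into 5 equal bins by exon GC, 52 members fell in the bin with the lowest GC, then 34, 31, 12 and 9, and the median lowest-stage ratio of the bins went from 1.07 to 0.629. Tex12, a protein of the synaptonemal complex, had the lowest exon GC among members with 34.4%, Ythdc1 had 36.9%, and Hist2h2aa1 had the highest with 63.7%. Ybx2 was also GC-rich with 62.5%, so low GC was not shared by all members.

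The median exon length was 4738 bases in members, 5202 in all stable mRNAs and 5266 in the low-ratio group. By 5 bins of exon length 39 members fell among the shortest, then 24, 28, 22 and 25. In the longest coding transcript the difference was larger, with medians of 2536, 3241 and 3741 bases, and the coding sequence alone had medians of 1088, 1538 and 2337 bases. The members ranged from 586 bases for Hist2h2aa1 to 18453 for Usp34, a deubiquitinase with 79 exon blocks.

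The m6A consensus was not denser in the members. GGACT occurred at a median of 0.860 per kb of exon in members, 0.967 in all stable mRNAs and 1.15 in the low-ratio group, and GGAC, which includes it, at 2.95, 3.53 and 4.63 per kb. GGACT was found in the exons of 123 members (89.1%) and of 96.4% of stable mRNAs. GC content, length and motif density vary together across genes, and their separate parts were not tested.

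**Figure D3:**
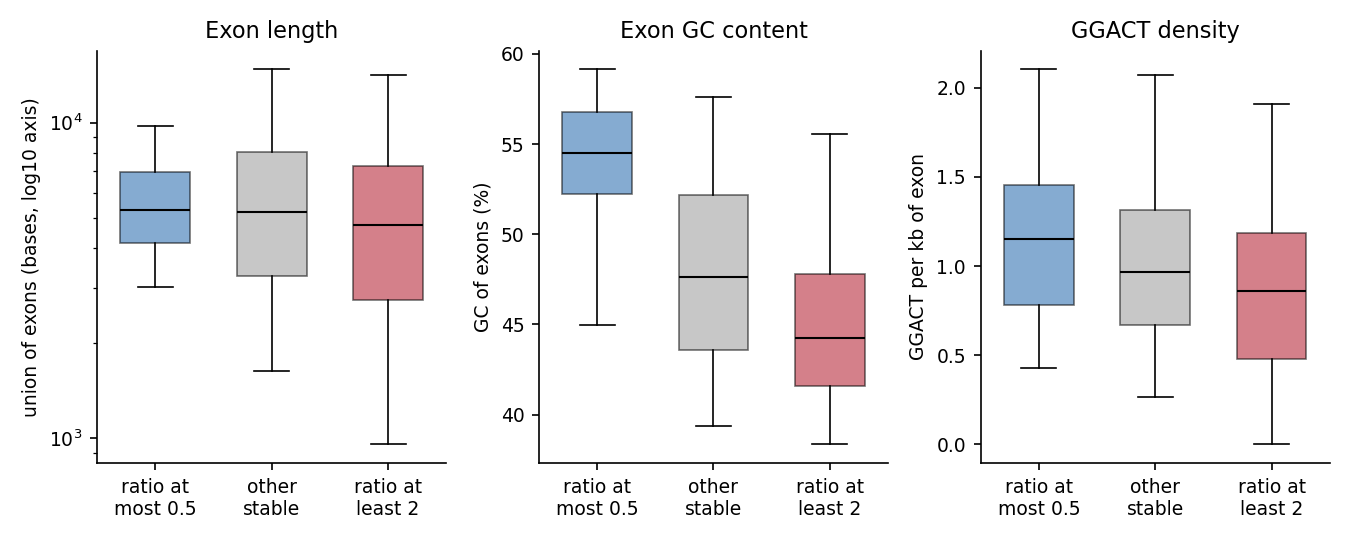
Exon length (bases, log axis), exon GC (percent) and GGACT per kb of exon for stable mRNAs with a ratio of at most 0.5 (blue), all other stable mRNAs (grey) and members (red). Boxes are quartiles with the median and whiskers run from the 5th to the 95th percentile; the GC of the 3 groups falls from a median of 54.5% in the blue group to 44.2% in the members.

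The members were read differently by the input libraries and by the RNA-seq libraries of the second experiment. The inputs were counted over whole gene spans, introns included and exon junctions absent, while NC embryos of the same L2C stage were counted over exons. The mean exon CPM in NC was a median of 4.36 times the mean L2C input CPM in members, 0.800 times in all stable mRNAs and 0.193 times in the low-ratio group. NC was over 4 times the input in 78 members (56.5%), against 8.13% of stable mRNAs and 0 of the 153 low-ratio genes. It was above the input in 127 members and below it in 11. The L2C input that divides NC here also divides the L2C IP in the rule, so these contrasts can follow in part from the choice.

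Rock1, a kinase of the actin cytoskeleton, had 55.1 CPM in L2C input and 2320 CPM in NC, and Psip1, a chromatin-bound coactivator, 16.5 and 572 CPM. Ythdc1 had 19.8 and 414 CPM. The reverse was seen in Camk1d, with 216 CPM in input and 10.5 CPM in NC, in Hypk, with 85.0 and 7.66 CPM, and in Nutf2-ps1, Gm7879, Paqr3 and Hist2h2aa1. Genes named only for these values, for exon content or for shared sequence were picked after their values were seen.

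Among stable mRNAs with NC over 4 times the L2C input 23.2% were members, while 11 of the 2377 with NC below the input were. These shares can restate the rule in part, since it used the same L2C input. Across the 4134 stable mRNAs the Spearman correlation of the NC/input quotient with the IP/input ratio was 0.65 at L2C, where the same inputs are the divisor of both, 0.47 at L1C and 0.39 at MII, where they are not. The genes share libraries and base composition, so this is a description. In members without an overlapping gene the median quotient was 4.22. Of the members 69 (50%) shared at least 1 31-base word with a processed pseudogene, against 34.8% of stable mRNAs. This comparison was added after the data were seen. What sets the quotient, and its part in the IP/input ratio, was not tested.

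**Figure D4:**
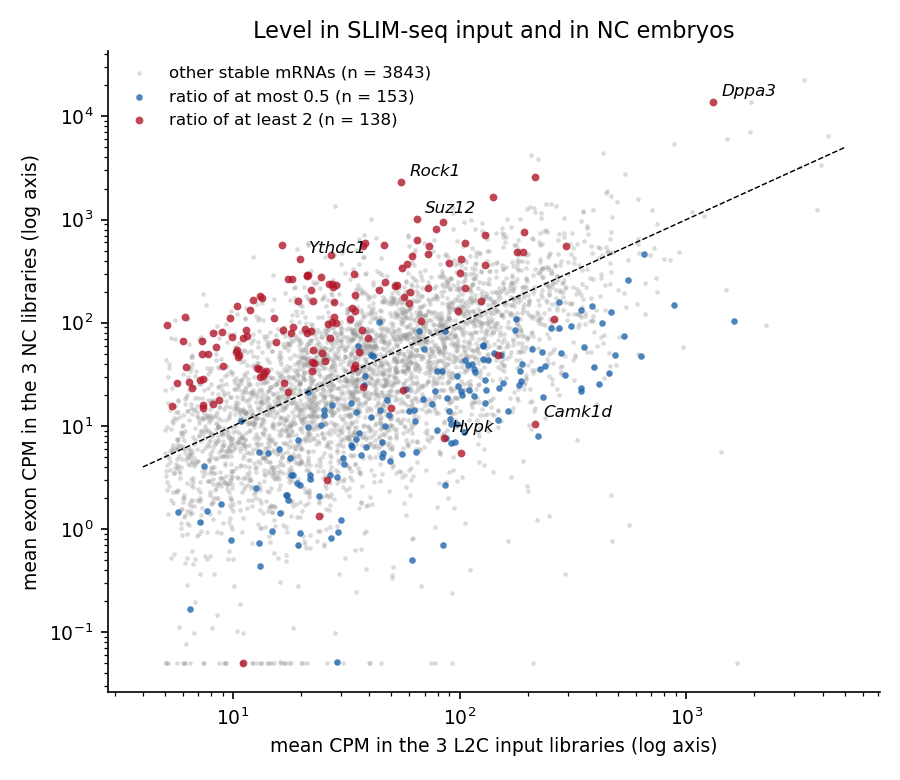
Mean CPM in the 3 L2C inputs (horizontal, log axis) against mean exon CPM in the 3 NC libraries (vertical, log axis) for stable mRNAs, with members in red and the low-ratio group in blue; genes at 0 in NC are drawn at the lower edge and the dashed line marks equal CPM. Most members lie above the line (127 of 138) and most low-ratio genes below it (147 of 153). The L2C input on the horizontal axis also entered the rule that chose both groups.

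The knockdown experiment compares the level of these mRNAs with the nuclear reader Ythdc1 lowered and not, and it did not enter the choice of members. The 3 crRNAs, which are shown because their target is itself a member, pair with Ythdc1 mRNA over their full length of 23 bases. The first lies at chr5:86817026-86817048, the second at chr5:86815667-86815689, and the third across an exon junction, and the longest run any of them shared with the exons or longest coding transcript of another member was 13 bases. They are printed 5′ to 3′.
crRNA 1: cctcattctcagtgttgttgccc
crRNA 2: aattcatcatcctgttctggtac
crRNA 3: ctctcagaaccatctggtgtagg

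The merged table of the 6 libraries covers 25739 genes, 65 members among them, with 3276715 to 5463868 counts a library. Over the whole annotation KD libraries 1 and 2 and the 3 NC libraries were used, with 8696476 to 14500548 counts. Ythdc1 was lowered in each KD library. In the merged table its CPM was 498, 521 and 493 in KD and 1114, 1138 and 1048 in NC, a log2 KD/NC of -1.004 ± 0.06 (SE, edgeR adjusted p = 1.3e-10, 3 against 3). The groups did not overlap. CPM in the merged table is a share of the counts of fewer genes. Over the whole annotation Ythdc1 had means of 198 CPM in KD libraries 1 and 2 and 414 CPM in NC.

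The members moved both ways in KD embryos, and the share that moved was close to that of all genes. With 5 libraries 137 members were tested and 95 passed an adjusted p of 0.05 (69.3%), against 66.8% of all 17074 genes tested. Of these 45 were higher in KD (32.8%, with 30.5% of all genes) and 50 lower (36.5%, with 36.4% of all genes). With 6 libraries 47 of 64 passed (73.4%, with 70.9% of 7433 genes). Of these 19 were higher (29.7%, with 33.5% of all genes) and 28 lower (43.8%, with 37.4% of all genes). Of the 64 members tested in both fits 45 passed in both, and those 45 had the same direction, although the fits share 5 libraries. The only member not tested was Hist2h2aa1, which was listed at 0 in NC. Ythdc1, the target of the crRNAs, is counted among the members lower in KD in both fits.

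Since the members moved both ways, a median near 0 does not give the size of their changes. With 5 libraries the median size of the log2 change was 0.41 in members, 0.50 in stable mRNAs and 0.76 in all genes tested. The median log2 KD/NC of members was -0.02 with 5 libraries (quartiles -0.49 and 0.39), beside -0.09 over all genes and -0.02 over stable mRNAs. With 6 libraries it was -0.09, beside -0.06 over all genes. The sign of these medians turned among members that overlap no other gene, to 0.058 with 5 libraries and 0.11 with 6. The thresholds of the study are a log2 change beyond 1 in size and a P under 0.05. It does not say beside them whether P was adjusted, while its statistics section states a correction for multiple comparisons in general. With P unadjusted here, 4 members were higher (2.92%) and 10 lower (7.30%) with 5 libraries, where 14.4% and 24.5% of all genes were. With 6 libraries 2 were higher and 5 lower, the target Ythdc1 among these 5, where 14.7% and 22.5% of all genes were. Among stable mRNAs 8.82% and 12.0% passed that rule with 5 libraries.

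Stage markers moved with the groups. Oocyte markers summed to 693 to 754 CPM in KD libraries 1 and 2 and to 1553 to 1657 CPM in NC, and 2-cell markers to 261 to 287 and 1065 to 1153 CPM, with 6 of 6 above 1 CPM in both groups. The largest part of the oocyte sum was Oosp1, itself a member, with means of 356 CPM in KD and 951 CPM in NC. Bmp15 had 144 and 332 CPM, Gdf9 43.5 and 109.5 CPM and Nlrp5 74.5 and 137 CPM. Zp3 was the other way round with 102 and 76.3 CPM, and Mos had 3.30 and 3.95 CPM. Markers of cumulus and granulosa cells summed to 36.4 to 40.0 and 24.4 to 33.2 CPM, with 2 of 8 above 1 CPM and Ptx3 at 0 in both. The part of these differences in the members' changes was not tested.

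Of the members lower in KD, the 5 with the smallest p in the 5-library fit were Dusp7, Sept11, Ccdc74a, Ythdc1 and Oosp1. Dusp7, a phosphatase of ERK kinases, had 62.2 and 66.5 CPM in KD libraries 1 and 2 and 191, 193 and 215 CPM in NC (log2 KD/NC -1.56 ± 0.09, adjusted p = 2.0e-09, edgeR). Sept11, a septin of the cytoskeleton, had 26.8 and 29.5 CPM in KD libraries 1 and 2 and 79.0, 79.5 and 81.4 CPM in NC (log2 KD/NC -1.43 ± 0.10, adjusted p = 1.5e-08, edgeR). Oosp1, itself one of the oocyte markers, had 378 and 335 CPM in KD libraries 1 and 2 and 999.96, 958 and 895 CPM in NC (log2 KD/NC -1.34 ± 0.08, adjusted p = 4.3e-09, edgeR). For each of them both KD libraries lay below all NC libraries. Ccdc74a, a coiled-coil protein, fell by 1.83 on the log2 scale. With 6 libraries Foxo1, a forkhead transcription factor, fell by 0.99, Suv39h2 by 1.03 and Dnajc5b by 1.85 on the log2 scale, and all 3 passed at adjusted p of 7.0e-09, 7.6e-09 and 3.7e-08 (edgeR).

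Of the members higher in KD, Commd6, a COMM-domain protein, changed most. It had 97.8 and 85.4 CPM in KD libraries 1 and 2 and 32.1, 36.4 and 34.7 CPM in NC (log2 KD/NC 1.49 ± 0.10, adjusted p = 1.1e-08, edgeR). Hnrnpa2b1 had 842 and 794 CPM in KD libraries 1 and 2 and 486, 494 and 458 CPM in NC (log2 KD/NC 0.85 ± 0.07, adjusted p = 1.0e-07, edgeR), a rise in the same libraries in which Ythdc1 fell. Prrc2c, a large protein of stress granules, had 690.0 and 651 CPM in KD libraries 1 and 2 and 411, 408 and 417 CPM in NC (log2 KD/NC 0.78 ± 0.07, adjusted p = 1.5e-07, edgeR). Tyw5, a tRNA-modifying hydroxylase, rose by 1.28 and Anapc10 by 1.09 on the log2 scale with 5 libraries. With 6 libraries Slc9b1 rose by 1.25 and Sec62, a part of the protein translocation channel, by 0.82. In these genes too the KD and NC libraries did not overlap.

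By role, 19 of 31 tested members of RNA binding, processing and translation rose (61.3%, with 30.5% of all genes) and 7 fell (22.6%, with 36.4% of all genes), with a median log2 KD/NC of 0.39. Of the 4 splicing factors among the members, Snrpd1 had log2 KD/NC 0.89 ± 0.09, adjusted p = 7.9e-07, Prpf8 log2 KD/NC 0.73 ± 0.12, adjusted p = 6.1e-05 and Hnrnpu log2 KD/NC 0.36 ± 0.08, adjusted p = 6.2e-04 (edgeR). In chromatin and transcription 8 of 32 rose (25%) and 11 fell (34.4%), and in membranes, transport and cytoskeleton 6 of 23 rose (26.1%) and 11 fell (47.8%). In mitochondria and metabolism 1 rose and 5 fell of 7, in signalling 1 and 4 of 11, in the ubiquitin group 4 and 3 of 10, in chromosomes and division 3 and 4 of 13 and among the genes not placed 3 and 5 of 10. The roles were assigned with values known, and these counts carry no test.

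Over all stable genes of the gene lists, members or not, the median log2 KD/NC was above 0 in 18 lists and below 0 in 5. In the edgeR fit, where 30.5% of all genes were higher and 36.4% lower, splicing factors had 28 higher and 0 lower of 39 tested, nucleolar ribosome assembly 11 and 0 of 18, proteasome subunits 12 and 1 of 17, oxidative phosphorylation 17 and 4 of 25 and mitochondrial ribosomal proteins 17 and 5 of 30. Zinc finger proteins had 27 higher and 37 lower of 111, small GTPases and vesicle transport 30 and 40 of 107 and solute carriers 16 and 21 of 53. The lists of oxidative phosphorylation and mitochondrial ribosomal proteins had medians of 0.56 and 0.57, while the 7 members placed in mitochondria and metabolism had a median of -0.49.

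The members with the strongest enrichment did not share a direction. Atp2a2 had 143 and 143 CPM in KD libraries 1 and 2 and 246, 235 and 233 CPM in NC (log2 KD/NC -0.66 ± 0.08, adjusted p = 4.5e-06, edgeR) and Paip1 1717 and 1571 CPM in KD libraries 1 and 2 and 2656, 2681 and 2413 CPM in NC (log2 KD/NC -0.58 ± 0.07, adjusted p = 6.2e-06, edgeR). Cnot6l, Zfp770 and Tab2 were also lower, with log2 values of -0.32, -0.65 and -0.31 and adjusted p of 0.0068, 0.0032 and 0.0043 (edgeR). Of these, Cnot6l and Tab2 did not pass without KD library 2 and Zfp770 did not without KD library 1. Slc9b1, Magoh, 1110059G10Rik and Usp1 were higher, with log2 values of 1.25, 0.47, 0.37 and 0.21. Usp1 was close to the threshold (edgeR adjusted p = 0.035) and lost its call in 5 of 9 repeated fits, among them those without KD library 1, NC library 2 or NC library 3. Suz12 did not pass, with 936 and 892 CPM in KD libraries 1 and 2 and 1063, 1025 and 950.0 CPM in NC (log2 KD/NC -0.07 ± 0.07, adjusted p = 0.4, edgeR), although it passed without NC library 3. Ybx1 rose and Ybx2 fell, with log2 KD/NC 0.41 ± 0.07, adjusted p = 1.0e-04 and log2 KD/NC -0.82 ± 0.13, adjusted p = 6.3e-05 (edgeR).

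**Figure D5:**
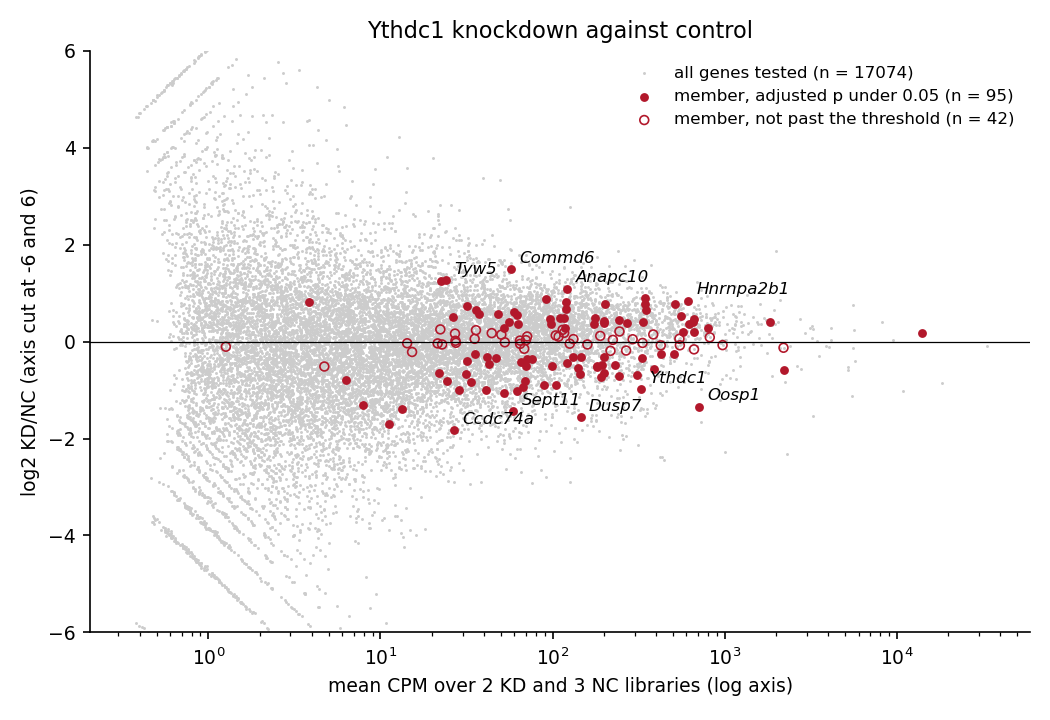
The log2 KD/NC of each gene in the 5-library edgeR fit (vertical) against its mean CPM over 2 KD and 3 NC libraries (horizontal, log axis), with all 17074 genes in grey, the 95 members past an adjusted p of 0.05 as filled red points and the other 42 as open red points. The members lie on both sides of 0, and few exceed 1 in size; a few grey points fall outside the vertical axis.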

How the data were processed

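The authors counted SLIM-seq reads with kallisto on whole gene spans of GRCm38, introns included, and deposited estimated counts and TPM per library. The deposited knockdown counts are raw exon counts from HISAT2 and featureCounts 2.0.1 on Ensembl 99, with no strand option. KD library 3 ended on chromosome 7 in the table used here and entered only the 6-library fit. Without strand overlapping and antisense genes cannot be told apart. The labels name a stranded kit and the study's methods an unstranded Smart-seq2 protocol. The submitters' notes also name Trimmomatic. CPM was the estimated count divided by the column sum. Gene types, transcripts and exon sequence came from GENCODE M21 and GRCm38, and crRNA sequences from the study's supplement. One stable mRNA lies on an unplaced scaffold and has no exon sequence here, and gene types were missing for 241 genes. Each knockdown fit (edgeR 4.0.16 in R 4.3.3, TMM, filterByExpr, quasi-likelihood test, Benjamini-Hochberg over all genes tested) was tested on simulated counts. The SE is the log2 change over the square root of F. TPM and DESeq2 1.42.0 served as alternatives, with library size alone, no filter, the replicate block and each library left out. Members, lists and roles were chosen with earlier results of these data known. Members named were the 10 with the highest lowest-stage ratio, the 10 with the highest mean input CPM, the 5 with the smallest p in each direction in each fit, those on the 23 gene lists and those beside the threshold. In every group the replicates differed by more than counting noise.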

Additional observations from a re-analysis of the deposited data

How the results depend on the processing

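The number of members was 51 with TMM scaling, 50 with TPM in the ratio, 545 and 10 with ratio limits of 1.5 and 3, 235 with an input CPM of at least 1 and 60 with a fold between stages under 2, and 94, 201 and 123 with an input CPM of at least 10, no limit on the fold and medians of 3 libraries; it was 121 to 153 without each library. With TMM the median ratio of the members was 2.23, 2.15 and 2.06 at MII, L1C and L2C, and without each library 2.57 to 2.76, 2.55 to 2.70 and 2.42 to 2.71. In members overlapping no other gene the median exon length was 3689 bases, GC 44.2%, GGACT 0.815 and GGAC 3.16 per kb, and the NC/input quotient, a comparison chosen after seeing the data, 4.22. In the longest coding transcript the values were 2535.5 bases, 45.2%, 0.920 and 3.58 per kb.

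Members called in KD numbered 7 (6 libraries) and 14 (5 libraries) with an unadjusted P under 0.05 and a log2 change over 1 in size, and 22 and 44 among members overlapping no other gene, which are fewer genes, with median log2 KD/NC of 0.11 and 0.058. With library size alone the medians were -0.21 and -0.10, the calls 16 higher and 32 lower of 64 and 40 higher and 55 lower of 137. Without each library the calls were 44 to 50 and 86 to 102 and the medians -0.12 to -0.039 and -0.018 to 0.051; where 1 KD library was left in the 5-library fit it was assumed to vary like the others. DESeq2 called 47 and 91. The replicate block gave 47 and 100 calls. The same numbers did not pair the samples: the correlations of same-numbered deviations were 0.04, -0.03 and -0.04 with 6 libraries, and KD 2 and 3 correlated best with another number. For 29 of the named members the fits were repeated, and all 431 kept direction and 419 the call, with changes in 5 members (Usp1, Suz12, Cnot6l, Tab2 and Zfp770), of which Usp1 lost and Suz12 gained its call under the replicate block. Without a filter 51.9% and 49.1% of all genes were called. Low counts limit members with an input near 5 CPM.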
